A study of Mus musculus with 42 samples.

Results

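Prostaglandin synthesis and receptor genes were followed through RNA sequencing of mouse colon goblet cells, stromal cells and organoids. The genes were 10 rows looked up by name: the cyclooxygenases Ptgs1 and Ptgs2, the synthases Ptges, Ptgis, Ptgds and Hpgds, the degrading enzyme Hpgd and the PGE2 receptors Ptger2, Ptger3 and Ptger4. Of these 10, 9 had a row in at least 1 of the 12 tables and 5 (Ptges, Hpgd, Hpgds, Ptger3 and Ptger4) in all 12, among 19232 distinct row names. Ptgds had no row in the tables used here and is not analysed.

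Prostaglandins are lipid signals made from arachidonic acid. Phospholipases free the fatty acid, the cyclooxygenases turn it into PGH2, and terminal synthases make PGE2 (Ptges), prostacyclin (Ptgis) or PGD2 (Hpgds and Ptgds). Hpgd inactivates PGE2 inside cells, and PGE2 acts through 4 G protein-coupled receptors, EP1 to EP4, encoded by Ptger1 to Ptger4. In the gut, mesenchymal cells are a known source of PGE2, which acts on the epithelium in repair, secretion and crypt growth.

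The 42 libraries fell into 18 groups. Stromal cells were sorted by tdTomato from the proximal or distal colon of Gli1-CreERT2 control mice (GWTT), mice with floxed Smad4 (GS4T) or mice with floxed Alk3 (GA3T), with 2 libraries in each group. Goblet cells were sorted by the Muc2-mCherry reporter from the same 3 genotypes (GWTM2, GS4M2 and GA3M2), again from both segments with 2 libraries in each group. All of these mice, controls included, carried Gli1-CreERT2 and received tamoxifen, were 2 to 4 months old, and were analysed at day 30; the deletion is driven in Gli1-positive stromal cells, so the goblet cells themselves were not its target. Wild-type colonic organoids were left untreated (Control) or were given 10 nM IL-1α with IL-1β (IL-1) or 10 nM IL-17A for 12 h or 72 h, with 3 libraries in each group. The authors describe them as distal colon organoids. Whether a library holds 1 mouse or several is not given in the sources used here, so the p-values measure only the spread between libraries, which may be technical.

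Depth ranged from 14222902 to 23686940 reads on named genes per library. Values are normalized counts, that is, gene counts divided by a size factor for each library, and are comparable within a table. Of the stromal markers, all 9 were read in every stromal library, and all 7 goblet markers in every goblet and organoid library. The columns of Control-12h replicates 2 and 4 hold the same reads as those of Control-72h replicates 1 and 4, so the control groups of both times hold 4 different libraries in all. Replicates 3 and 4 of IL-17A-12h, replicates 3 and 4 of IL-1-12h, and replicates 2 and 4 of Control-72h differed from each other far less than other pairs did (chi-square per gene of 3.03 to 3.32, against 26.1 or more between other organoid replicates), but by more than sampling noise, and were kept as separate libraries. In addition, 19 labelled libraries carried Xist at 997.7 CPM (counts scaled to library depth) or more and 23 at 0.813 or less, and the mix differed between groups. Those of the Y chromosome genes Ddx3y, Eif2s3y, Kdm5d and Uty that had a row summed to 84.84 to 292.5 CPM without Xist and to 1.774 or less with it. Not every table had all of these rows. The same reads summed to 215.6 CPM as Control-12h replicate 2 and to 84.84 as Control-72h replicate 1. Xist state thus split the libraries as the sex of the mice would. The authors used mice of both sexes, and the labels give no sex per library.

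The Smad4 deletion was visible in the stromal cells. Smad4, the shared mediator of BMP and TGF-β signals, had 1604 and 1673 normalized counts in proximal GWTT against 705 and 835 in GS4T (log2 fold change -1.09 ± 0.12 SE, adjusted p = 0.010). Distally it had 1781 and 1703 against 680 and 1171 (-0.96 ± 0.25, adjusted p = 0.042). Bmpr1a, which encodes the BMP receptor ALK3, was lower in all 4 GA3T libraries than in their controls, 2233 and 1842 against 2960 and 3220 in the proximal colon and 2203 and 2043 against 3359 and 3485 in the distal colon. Its log2 fold changes of -0.61 ± 0.14 and -0.69 ± 0.11 did not pass the test over all genes (adjusted p = 0.12 and 0.10). Groups did not overlap for 56.4% of all genes in the proximal and 54.3% in the distal GA3T comparison. Mean Bmpr1a was also lower in goblet cells, which were not the target. It was 1454 against 2048 counts in proximal GA3M2 and 1391 against 1728 in distal GA3M2. GS4M2 had 1527 against 1931 and 1437 against 1798. These values alone do not show the Alk3 deletion. In such bulk samples, fewer cells of a type and less RNA per cell cannot be told apart.

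The sequences just upstream of the RefSeq starts of 3 genes that carry called changes are shown. Ptgs1 and Hpgd changed in opposite directions in Smad4 knockout stroma, and Ptges rose in organoids. The Ptges window lies inside the longer GENCODE span of that gene, chr2:30889471-30929863. Each run holds the 250 bases before the RefSeq start on GRCm38.p6, 5′ to 3′ on the gene's strand. Capitals mark matches, on either strand, to CAGAC (the SMAD box), GGCGCC (a palindromic GC-rich site), GGGCGG (the GC box) or the NF-κB consensus.
Ptgs1, chr2:36230176-36230425, plus strand: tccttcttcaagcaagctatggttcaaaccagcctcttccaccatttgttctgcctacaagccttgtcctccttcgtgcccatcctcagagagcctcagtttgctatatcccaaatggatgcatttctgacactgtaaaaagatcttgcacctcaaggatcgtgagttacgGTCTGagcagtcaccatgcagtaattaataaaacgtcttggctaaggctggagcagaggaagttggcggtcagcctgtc
Hpgd, chr8:56294302-56294551, plus strand: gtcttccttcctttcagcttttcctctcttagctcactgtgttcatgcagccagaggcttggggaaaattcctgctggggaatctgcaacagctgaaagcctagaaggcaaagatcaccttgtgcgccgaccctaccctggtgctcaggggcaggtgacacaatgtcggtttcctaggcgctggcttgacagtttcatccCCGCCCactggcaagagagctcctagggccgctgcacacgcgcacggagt
Ptges, chr2:30903298-30903547, minus strand: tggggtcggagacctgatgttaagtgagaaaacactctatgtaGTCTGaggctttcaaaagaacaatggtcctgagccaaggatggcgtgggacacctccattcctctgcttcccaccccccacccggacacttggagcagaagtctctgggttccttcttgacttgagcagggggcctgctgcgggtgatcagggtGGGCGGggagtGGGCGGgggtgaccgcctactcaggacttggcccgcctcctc
Ptgs1 held 1 SMAD box and no GC box, Hpgd held 1 GC box and no SMAD box, and Ptges held 1 SMAD box and 2 GC boxes. No window of the 3 matched GGCGCC or the NF-κB consensus. Over all 32851 promoter windows of this length, 42.2% held the SMAD box, 9.59% GGCGCC, 32.7% the GC box and 3.9% the NF-κB consensus. The matches are letters in a window and were not tested as binding sites. Of the 10 genes, 9 had an entry in this table, and Ptgis did not.

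In the sorted control cells, RNA for the cyclooxygenases and for the PGE2 and prostacyclin synthases was far higher in stroma than in goblet cells, whereas the degrading enzyme and the EP4 receptor were read in both. Levels between genes are given as RPKM, that is, reads scaled to exon length and library depth. In proximal GWTT cells the order was Hpgd at 97.4 ± 12.4 RPKM (SD, n = 2), Ptgis at 68.6 ± 6.38, Ptgs2 at 42.3 ± 11.7, Ptgs1 at 22.6 ± 3.71, Ptger4 at 19.2 ± 1.76 and Ptges at 18.3 ± 6.94, with Ptger2 at 2.40 ± 0.226, Ptger3 at 0.715 ± 0.402 and Hpgds at 0.436 ± 0.240 far below. Ptgs1, Ptger4 and Ptges lay within each other's spread, as did Ptger3 and Hpgds. In distal GWTT cells the order changed to Ptgs2 at 83.8 ± 29 RPKM, Ptges at 48.1 ± 3.53, Ptgs1 at 38.7 ± 0.907, Ptgis at 34.5 ± 0.0205, Hpgd at 31.0 ± 3.03 and Ptger4 at 16.7 ± 2.16. Ptger2 stood at 4.65 ± 0.779, and Hpgds (1.51 ± 0.197) and Ptger3 (1.44 ± 0.808) did not differ beyond their spread.

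Between the segments of control stroma, 2 of the 9 genes were called, Hpgd and Ptges, where 2.61% of 14279 genes were called; here and below, called means that limma gave a Benjamini-Hochberg adjusted p under 0.05 and a log2 fold change of 1 or more in size. Hpgd was 3.09-fold higher in the proximal colon (log2 difference in CPM 1.63 ± 0.13, adjusted p = 0.0070). Ptges was 2.70-fold lower there (-1.43 ± 0.25, adjusted p = 0.043). Ptgis leaned toward the proximal colon (0.98 ± 0.10, adjusted p = 0.011) and Ptgs1 toward the distal colon (-0.78 ± 0.13, adjusted p = 0.037), both below the fold limit. The remaining 5 genes did not pass (adjusted p from 0.063 for Ptger2 to 0.49 for Ptger4).

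Goblet cells had few reads of the cyclooxygenases, Ptges and Ptgis. Mean levels in proximal GWTT and GWTM2 cells were 71.9 and 1.81 CPM for Ptges, 87.7 and 0.693 for Ptgs1, 193.7 and 0 for Ptgs2 and 176 and 0.0252 for Ptgis. Ptgs1, Ptgs2 and Ptgis passed the filter of a mean of 1 CPM through the stromal libraries alone, so no count is drawn from their calls. Ptgs2 had no read in either GWTM2 library against 6308 reads in the 2 GWTT libraries, at least 1138-fold lower with a floor of 3 reads per library, and Ptgis had 1 read against 5724 (ratio 6280, 95% exact interval 1127 to 248078, counting error only). Of the 5 genes above 1 CPM in both cell types, 2 were called, where 44.2% of 12852 genes were called in either direction. The fold changes are on the log2(CPM + 1) scale, which understates the change of low genes. Ptges was lower in the goblet cells (log2 difference -4.66 ± 0.32, adjusted p = 3.3e-04). Hpgds, the PGD2 synthase of mast cells and antigen-presenting cells, was 2.48-fold higher in the goblet cells on that scale (1.31 ± 0.37, adjusted p = 0.028). In the distal colon, where 42.9% of 12555 genes were called, 2 of 5 genes tested were called. Ptges had 189.1 CPM in stroma and 1.41 in goblet cells (-6.31 ± 0.18, adjusted p = 1.7e-05). Hpgds was lower in goblet cells there, at 3.56 against 9.72 CPM (-1.26 ± 0.30, adjusted p = 0.013), so it had opposite directions in the 2 segments. The proximal minus distal difference of these 2 contrasts was not tested. Hpgd did not pass in either segment (-0.10 ± 0.26 and 0.65 ± 0.34 on the log2 scale), and Ptger4 was 1.93-fold and 1.62-fold lower in goblet cells, under the fold limit. Mast cell markers summed to 303 to 474 CPM in proximal GWTM2 cells with reads on only 2 of the 7 genes of that list. They summed to 183 to 309 CPM in distal GWTM2 cells, where Hpgds was lower than in stroma. Proximal GWTT had 11.4 to 14.3 CPM, distal GWTT 5.01 to 9.72, and organoids at 12 h 24.4 to 71.4. The part of mast cells in the Hpgds level was not tested.

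**Figure D1:**
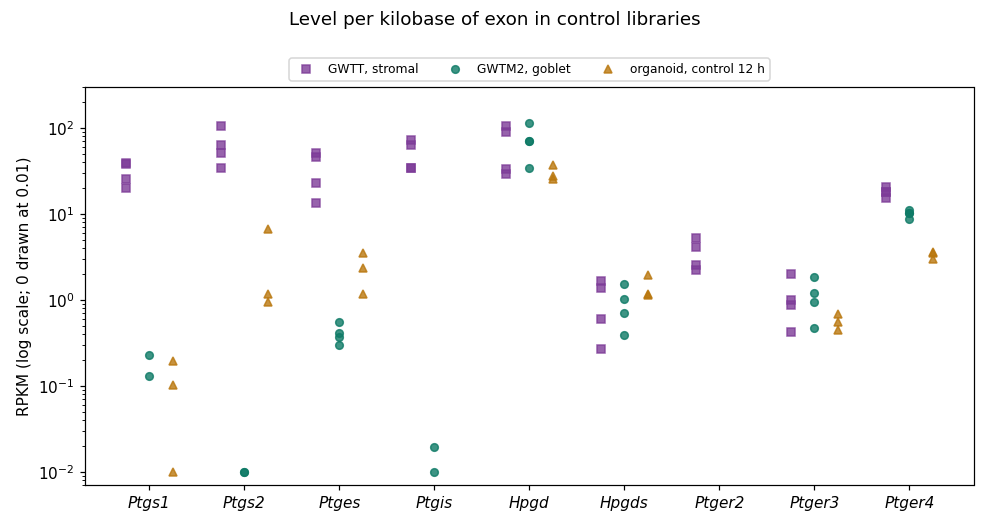
Level of each gene in control libraries, in RPKM on a log axis, with 4 stromal libraries (GWTT), up to 4 goblet libraries (GWTM2) and 3 organoid libraries (Control-12h); each mark is 1 library, a value of 0 is drawn at 0.01, and a gene without a row in a table has no mark. Ptgs1, Ptgs2, Ptges and Ptgis lie higher in all stromal than in all goblet libraries. The organoids have 3.37 RPKM of Ptger4 and 30.2 of Hpgd on average. Distal stroma has 16.7 and 31, and proximal stroma 19.2 and 97.4.

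In Gli1 stromal cells, Smad4 deletion lowered the prostaglandin-degrading enzyme and the prostacyclin synthase in both segments of the colon. Hpgd fell 7.21-fold in the proximal and 5.78-fold in the distal colon, and Ptgis fell 4.38-fold and 2.68-fold. Ptgs1 and Hpgds rose 2.98-fold and 5.11-fold in the proximal colon. In GS4T-Proximal 4 of 9 genes were called, where 9.61% of 15319 genes were called, 5.25% higher and 4.36% lower. In GS4T-Distal 2 of 9 were called, where 14.0% of 15262 were called, 7.88% higher and 6.08% lower. These tests used limma on log2(normalized count + 1). Without GS4T-Proximal replicate 1 all 4 proximal calls were lost, with log2 fold changes of -2.70 for Hpgd, -1.86 for Ptgis, 1.30 for Ptgs1 and 1.92 for Hpgds (adjusted p = 0.066, 0.066, 0.10 and 0.23). Ptgs1 and Hpgds were also lost without GS4T-Proximal replicate 2 (1.84 and 2.79, adjusted p = 0.059 and 0.14), and Hpgds without GWTT-Proximal replicate 1 (1.79, adjusted p = 0.058) or with Xist state, which was present in 1 of 2 proximal GWTT and 2 of 2 GS4T libraries, as a term (1.79, adjusted p = 0.059).

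Hpgd, 15-hydroxyprostaglandin dehydrogenase (chr8:56294585-56321043, plus strand), had 3020 and 2474 normalized counts in proximal GWTT and 340 and 421 in GS4T. Both knockout libraries lay below both controls (log2 fold change -2.85 ± 0.16, adjusted p = 0.0037). Over all genes tested, the groups did not overlap for 65.4% in GS4T-Proximal and 67.5% in GS4T-Distal. In the distal colon, where the control level was lower, it had 916 and 790 counts against 175 and 122 (-2.53 ± 0.22, adjusted p = 0.0020), again without overlap.

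Ptgis, prostacyclin synthase (chr2:167191805-167240604, minus strand), had 2779 and 3111 counts in proximal GWTT and 556 and 809 in GS4T. The groups did not overlap, as for 65.4% of genes there (-2.13 ± 0.20, adjusted p = 0.0071). Distal cells had 1453 and 1438 counts against 560 and 517 (-1.42 ± 0.11, adjusted p = 0.0017). Both knockout libraries again lay below both controls.

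Ptgs1, cyclooxygenase 1 (chr2:36230426-36252272, plus strand), moved the other way. It had 1655 and 1286 counts in proximal GWTT and 5239 and 3606 in GS4T (1.57 ± 0.22, adjusted p = 0.016). Distal libraries had 2426 and 2483 against 4612 and 4852 (0.95 ± 0.10, adjusted p = 0.0035), a 1.93-fold difference that passed the p limit but not the fold limit. All 4 knockout libraries lay above their controls, where 65.4% of genes in the proximal and 67.5% in the distal comparison lay apart.

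Hpgds, hematopoietic PGD2 synthase (chr6:65117293-65144908, minus strand), was a low gene in this stroma. It had 29.0 and 64.6 counts in proximal GWTT and 305 and 167 in GS4T (2.35 ± 0.51, adjusted p = 0.041). Distally 174 and 143 counts stood against 349 and 153, so the groups overlapped (0.55 ± 0.41, adjusted p = 0.37). Macrophage markers, all 7 of which were read, summed to 110 and 170 CPM in proximal GWTT and to 780 and 343 in GS4T, higher in the same library in which Ptgs1 and Hpgds were highest. In the distal colon these macrophage markers summed to 346 to 362 in GWTT. Distal GS4T had 1018 in replicate 1 and 503 in replicate 2, beside 4612 and 4852 counts of Ptgs1 and 349 and 153 of Hpgds. Epithelial markers summed to 13.4 and 447 CPM in proximal GWTT and to 1114 and 1354 in GS4T. Neutrophil markers summed there to 2.08 and 6.49 against 66.9 and 83.1. Distal epithelial markers summed to 51.3 to 155 in GWTT and 604 to 1192 in GS4T. Proximal smooth muscle markers summed to 321 to 437 against 909 to 1213, and endothelial markers to 22.6 to 25.3 against 56.4 to 97.9. Both overlapped in the distal colon. The part of all these cells in the Hpgd, Ptgis, Ptgs1 and Hpgds values was not tested.

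Ptgs2, the inducible cyclooxygenase (chr1:150100031-150108227, plus strand), had the highest mean RPKM of the group in distal GWTT stroma and did not pass in any knockout. It had 3915 and 2584 counts in proximal GWTT and 4428 and 3119 in GS4T (0.22 ± 0.26, adjusted p = 0.58). Distal stroma had 4751 and 7756 against 7136 and 3717 (-0.24 ± 0.36, adjusted p = 0.67). Libraries within a group differed by more than the groups did.

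Ptges, the inducible PGE2 synthase (chr2:30889471-30929863, minus strand), had 889 and 1512 counts in proximal GWTT and 2321 and 2129 in GS4T, without overlap, as 65.4% of genes, but outside the adjusted limit (0.94 ± 0.26, adjusted p = 0.069). For distal cells 3262 and 2911 counts stood against 3466 and 3284 (0.13 ± 0.11, adjusted p = 0.43). The proximal means were 1201 counts in GWTT and 2225 in GS4T.

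Among the receptors, Ptger4 (EP4, chr15:5206661-5244187, minus strand) had 2016 and 2252 counts in proximal GWTT and 1411 and 1222 in GS4T (-0.70 ± 0.12, adjusted p = 0.025), and 1656 and 1969 against 857 and 950 in the distal colon (0.500 of the control level, adjusted p = 0.0062). Both passed the p limit and stayed under the fold limit as limma estimated it, while edgeR and DESeq2 called the distal value. A pseudogene on the opposite strand shares 15.3% of the Ptger4 exon bases, and whether counting used strand is not given in the sources used here. Ptger2 (EP2) had 349 and 439 counts in distal GWTT against 236 and 187 in GS4T (-0.90 ± 0.21, adjusted p = 0.033) and did not pass in the proximal colon (0.08 ± 0.26, adjusted p = 0.86). Ptger3 (EP3) had between 24.9 and 188 counts in the 8 libraries of both comparisons and did not pass in either.

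**Figure D2:**
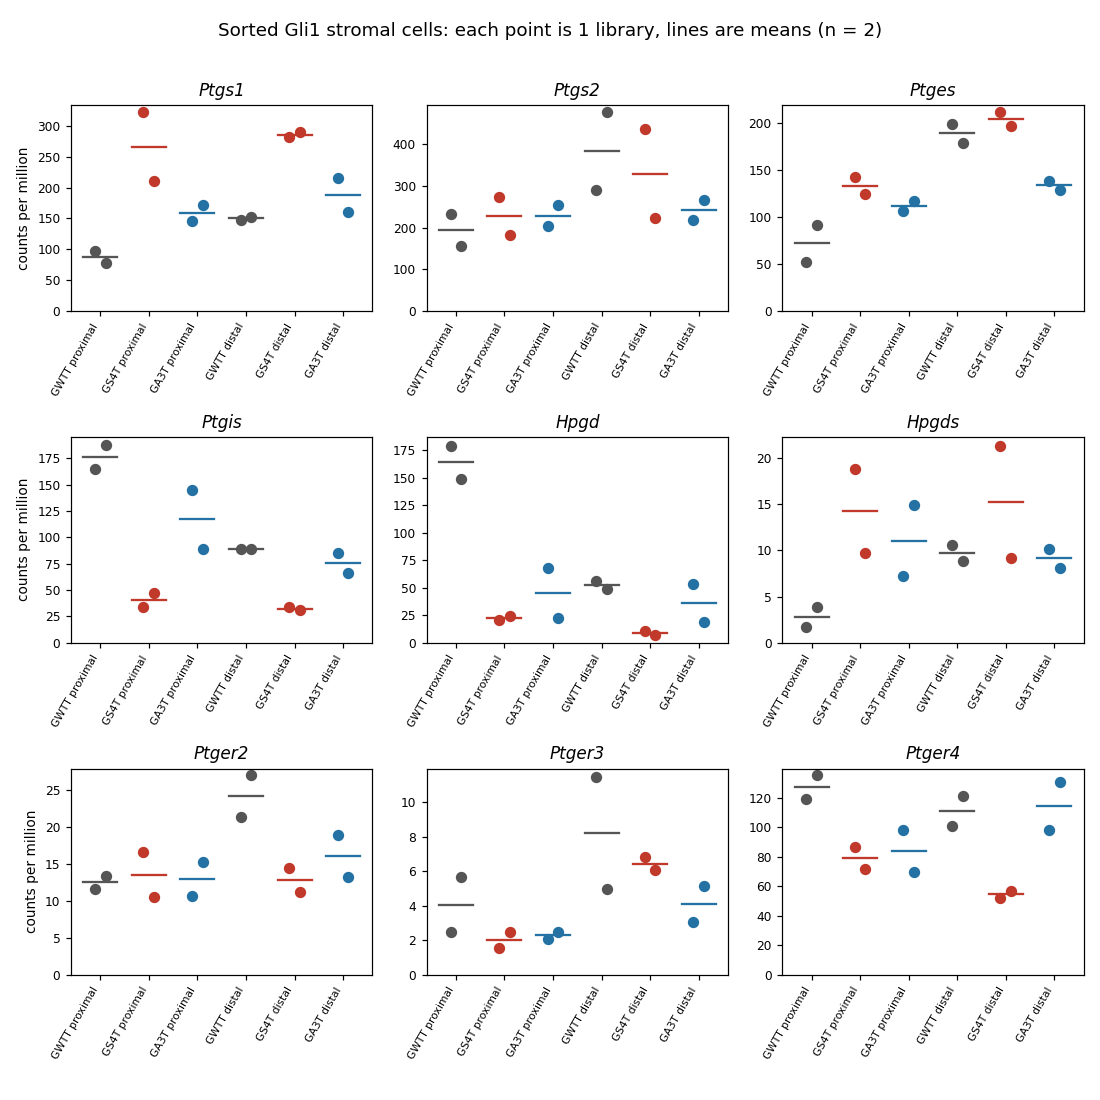
CPM of the 9 genes in sorted Gli1 stromal cells; points are libraries and lines are group means (n = 2), for control (grey), Smad4 knockout (red) and Alk3 knockout (blue) in the proximal and distal colon. The Hpgd and Ptgis points of GS4T lie below their controls in both segments, and those of Ptgs1 above.

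With Alk3 deleted in the stroma, none of the 9 genes was called in either segment by the comparison as designed. The proximal comparison called 0.358% of 15346 genes and the distal one none, although 2 and 0 of the 9 genes, and 1451 and 1197 of all genes, passed the fold limit at a p under 0.05 before adjustment. Hpgd had 3178 and 2601 counts in proximal GWTT and 1213 and 399 in GA3T (-2.04 ± 0.53, adjusted p = 0.14). Hpgds had 30.5 and 67.9 counts against 128 and 262 (1.99 ± 0.56, adjusted p = 0.15). Ptgs1 had 1742 and 1352 against 2613 and 3003 (0.87 ± 0.16, adjusted p = 0.095). None of these 3 overlapped with its controls, but 56.4% of all genes tested there did not overlap either, and macrophage markers summed to 440 and 684 CPM in these GA3T libraries. Ptgis was 1.53-fold lower in proximal and 1.18-fold lower in distal GA3T (-0.62 ± 0.26 and -0.24 ± 0.13; adjusted p = 0.25 and 0.37). DESeq2 on recovered reads, which called 6.29% of genes in GA3T-Proximal, called Hpgd and Hpgds, and edgeR called no gene at all there. GA3T and GS4T were each compared with the same GWTT libraries.

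In the distal colon of GA3T mice the values lay near controls or below. Ptges had 3722 and 3313 counts in GWTT and 2457 and 2493 in GA3T (-0.50 ± 0.11, adjusted p = 0.14). Hpgd had 1045 and 899 against 957 and 372, with overlap (-0.70 ± 0.44, adjusted p = 0.44). Xist was present in 2 of 2 GWTT and 1 of 2 GA3T libraries there, and with Xist state as a term, added after seeing the data, Hpgd was called (-1.38, adjusted p = 0.031), where 3.89% of genes were. Ptgs2 had 5419 and 8826 against 3876 and 5110 (-0.64 ± 0.27, adjusted p = 0.30). None of the 9 genes passed the test of a difference between segments in the knockout effect, in Smad4 or in Alk3 knockout stroma; 0.195% of 14871 genes passed it for GS4T (0.148% higher and 0.0471% lower in the proximal colon) and 0% of 14973 for GA3T, with a lowest adjusted p of 0.37 among the 9 genes (Ptgis, GS4T, -0.71 ± 0.24). For Ptges the GA3T effect was higher in the proximal colon by 1.20 ± 0.32 on the log2 scale, with an unadjusted p of 0.0070 and an adjusted p of 0.49 from limma.

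Across the 12 stromal libraries, the levels of Ptgs1 were most like those of Fes (Pearson r = 0.971), Mroh1 (0.964) and Vps37c (0.964), out of 14435 genes. Those of Ptgs2 were most like Mospd2 (0.844), Smg8 (0.839) and Parvg (0.832). Both are descriptions over libraries that share genotype groups and segment.

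The rest of the pathway moved in both directions in Smad4 knockout stroma. Of 30 other genes tested in GS4T-Proximal, 4 were called higher and 1 lower, where 5.25% and 4.36% of all genes were, with a median log2 fold change of 0.36 against 0.02 over all genes. Ptgfr, the receptor for PGF2α, fell by 3.83 on the log2 scale (± 0.24, adjusted p = 0.0041). Pla2g5, a secreted phospholipase, rose by 4.31 ± 0.79, Slco2a1, the prostaglandin uptake transporter, by 2.21 ± 0.37, Tbxas1, thromboxane synthase, by 1.92 ± 0.42 and Akr1b8, an aldo-keto reductase, by 1.57 ± 0.12. In GS4T-Distal 5 of 30 were called higher and 2 lower, where 7.88% and 6.08% of all genes were, with a median of 0.34 against 0.00. Slco2a1 (2.09 ± 0.40) and Pla2g5 (2.79 ± 0.60) rose again, together with Ptgdr, a PGD2 receptor (4.58 ± 0.87), the phospholipase Pla2g10 (3.74 ± 0.76) and Alox5ap, which serves leukotriene synthesis (2.65 ± 0.69). Tbxa2r, the thromboxane receptor, fell by 2.02 (± 0.27) and the leukotriene receptor Cysltr1 by 1.23 (± 0.29). Neutrophil markers summed to 2.08 to 6.49 CPM in GWTT and 66.9 to 83.1 in GS4T in the proximal colon, and to 3.58 to 6.32 against 162 to 226 in the distal colon; their part was not tested. In GA3T stroma 0 of 30 and 0 of 29 were called; the lowest and highest were Ptgfr (-2.53 ± 0.70, adjusted p = 0.15) and Alox5ap (2.72 ± 1.20) in the proximal colon and Tbxa2r (-1.10 ± 0.36) and Pla2g10 (4.45 ± 0.84, adjusted p = 0.12) in the distal colon.

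**Figure D3:**
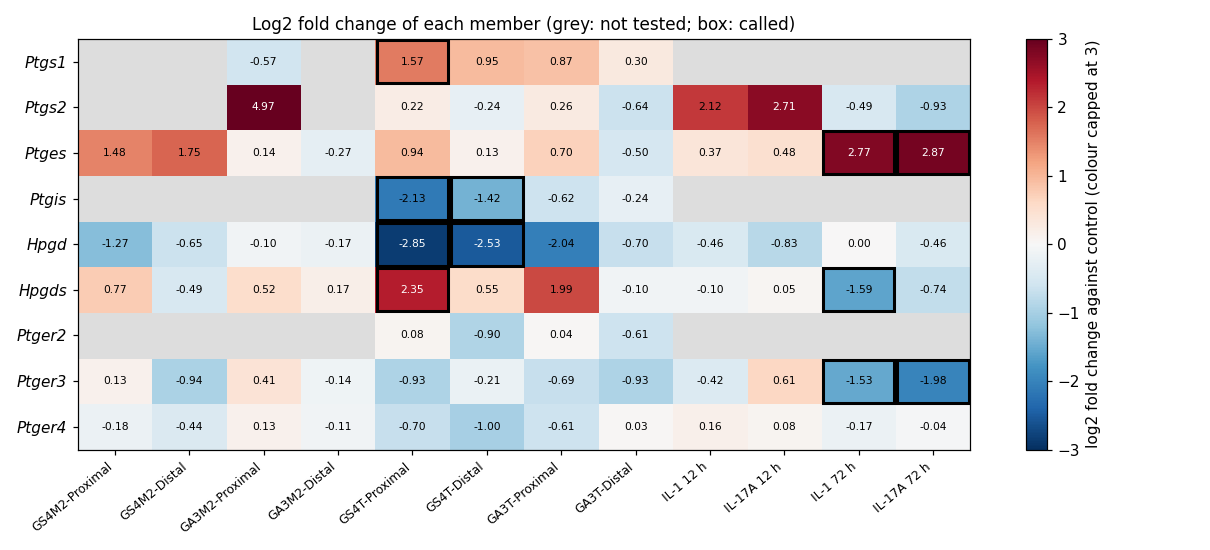
Log2 fold change of each gene against control in the 12 comparisons, written in each cell and coloured from blue (lower) to red (higher) with colour capped at 3; grey cells were not tested and black boxes mark called values. Of the 11 called values, 6 lie in the 2 Smad4 knockout stromal comparisons and 5 in the 2 organoid comparisons at 72 h.

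In goblet cells taken from the knockout mice, none of the genes was called in any of the 4 comparisons. Between 5 and 7 of the genes could be tested in each, because Ptgs1, Ptgs2 and Ptgis were at or near zero and Ptger2 had no row. Background calls were also few, 0.325% of 13246 genes in GS4M2-Proximal, 0.0899% of 13346 in GA3M2-Proximal (0.0375% higher and 0.0525% lower) and 0% in both distal comparisons, where limma gave 353 and 539 genes past the fold limit at a p under 0.05 before adjustment. DESeq2 on recovered reads called Ptges and Hpgd in GS4M2-Proximal, Ptges in GS4M2-Distal and Ptgs2 in GA3M2-Proximal, and edgeR called none.

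Ptges was higher in all 4 GS4M2 libraries than in their controls, where 50.2% of genes in the proximal and 45.7% in the distal comparison lay apart. It had 36.9 and 24.8 counts in proximal GWTM2 against 88.3 and 84.5 in GS4M2 (1.48 ± 0.32, adjusted p = 0.12). In the distal colon 21.1 and 29.4 counts stood against 94.9 and 78.1 (1.75 ± 0.35, adjusted p = 0.37). In GA3M2 the groups overlapped, with 41.3 and 30.4 against 39.3 and 26.2 counts in the proximal colon and 22.5 and 17.3 against 20.2 and 28.4 in the distal colon. Of 9 stromal markers, 2 had a row for the proximal GS4M2 libraries, where they summed to 5.94 to 7.59 CPM, and the part of stromal RNA in the Ptges values was not tested.

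Hpgd was the most abundant of these genes in goblet cells. It had 2021 and 3330 counts in proximal GWTM2 against 923 and 1261 in GS4M2 (-1.27 ± 0.26, adjusted p = 0.11), and 1010.5 and 2137 against 874 and 1001 in the distal colon (-0.65 ± 0.36, adjusted p = 0.55). In both segments the GS4M2 libraries lay below both controls, where 50.2% and 45.7% of all genes tested also did not overlap. The control libraries of each segment differed in Xist, with 1 of 2 positive, whereas all GS4M2 and GA3M2 libraries were negative. With Xist state as a term in the limma fit, chosen after seeing the data, Hpgd was called in both segments of GS4M2 (-1.63, adjusted p = 0.039, and -1.19, adjusted p = 0.026), where 1.03% and 1.72% of genes were called. In GA3M2 it had 1870 and 3547 counts against 2152 and 3520 in the proximal colon, and 1084 and 1444 against 967 and 2063 in the distal colon.

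Ptgs2 had 0 counts in both proximal GWTM2 libraries and 30.2 and 30.4 in GA3M2, at least 9.52-fold higher with a floor of 3 reads per library (adjusted p = 0.13 in limma). Its row was present in no other goblet table. Neutrophil markers, of which 1 to 3 of 6 were read, summed to 0.378 to 1.06 CPM in proximal GWTM2 and to 19.8 to 82.1 in proximal GA3M2, and macrophage markers to 5.04 to 5.42 against 11.1 to 14.1. Ptgis, which was read mainly in stroma, had 0.914 and 0 counts against 9.06 and 17.5, below the filter. Stromal markers summed to 15.1 to 16.8 against 13.6 to 33.2 CPM, smooth muscle markers to 1.01 to 1.64 against 2.98 to 16.0, and goblet markers to 29578 to 32645 against 8878 to 12335. The part of these cells in the Ptgs2 values was not tested.

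The receptors and Hpgds had no call either. Ptger4 had 1207 and 1221 counts in distal GWTM2 against 893 and 892 in GS4M2 (-0.44 ± 0.11, adjusted p = 0.38) and stayed between 902 and 1404 in the proximal tables. Hpgds had 112 and 167 counts in proximal GWTM2 against 244 and 227 in GS4M2 (0.77 ± 0.24, adjusted p = 0.20) and 45.2 and 82.6 against 48.4 and 38.6 in the distal colon. Ptger3 had 121 and 192 counts in distal GWTM2 against 113 and 55.2 in GS4M2 (-0.94 ± 0.44, adjusted p = 0.51). No gene passed the test of a segment difference in either knockout, where 0% of 12760 and 0% of 12822 genes passed.

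**Figure D4:**
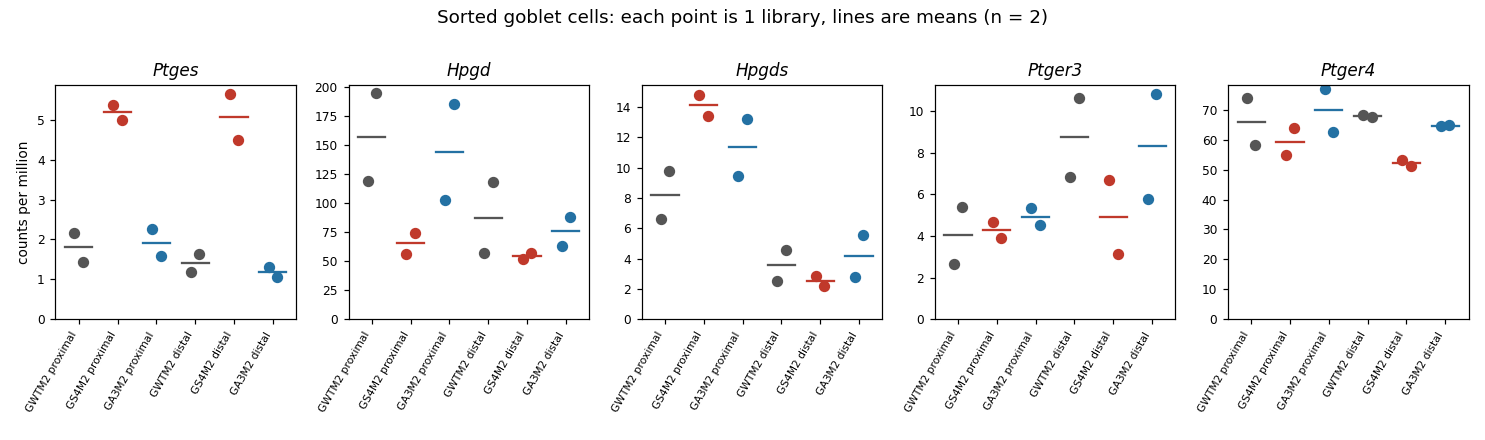
CPM of the 5 genes present in every goblet table; points are libraries and lines are group means (n = 2), for control (grey), Smad4 knockout (red) and Alk3 knockout (blue) mice. The Ptges points of GS4M2 lie above 4 CPM in both segments, while those of the other groups lie below 3.

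Among 20 to 23 other pathway genes tested in each goblet comparison, none was called, with medians of the log2 fold change from -0.05 to 0.18. The highest in each were Ptgdr in GS4M2-Proximal (31.9-fold higher, adjusted p = 0.081), Prxl2b, a prostamide and PGF2α synthase, in GS4M2-Distal (1.38 ± 0.31), Pla2g5 in GA3M2-Proximal (1.95 ± 0.63) and the lipoxygenase Alox12 in GA3M2-Distal (3.71 ± 0.94). The lowest were Alox5 (-1.46 ± 0.56), Pla2g4c (-1.37 ± 1.10), Ptger1 (-2.45 ± 0.83) and Pla2g4c (-1.85 ± 1.07), in the same order.

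In organoids, which hold epithelium without stroma, the called genes were all called at 72 h. After 72 h Ptges rose 6.81-fold with IL-1 and 7.31-fold with IL-17A, while Ptger3 fell 2.88-fold and 3.95-fold and Hpgds fell 3.01-fold with IL-1. IL-1-72h called 3 of 6 genes where 23.0% of 13023 genes were called, 10.9% higher and 12.2% lower. IL-17A-72h called 2 of 6 where 7.94% of 13073 were called, 5.02% higher and 2.92% lower. At 12 h none of 6 was called in either comparison, where 0.0542% of 12913 and 0.0385% of 12977 genes were called. The IL-1 and IL-17A groups of a time share their control libraries. Control-72h replicates 1 and 4 hold the same reads as Control-12h replicates 2 and 4, so their harvest time is not established. Cytokine and culture time can therefore not be fully told apart in the 72 h fold changes. In IL-17A-72h the Ptges call was lost without Control-72h replicate 2 or 4 or IL-17A-72h replicate 1 or 3 (log2 fold change 2.66 to 3.09), and the Ptger3 call without any of these or Control-72h replicate 1 (-2.20 to -1.84). In IL-1-72h the Ptger3 call was lost without Control-72h replicate 2 (-1.39, adjusted p = 0.089) or 4 (-1.45, adjusted p = 0.081). Xist was present in 0 of 3 IL-17A-72h and 2 of 3 Control-72h libraries, and with Xist state as a term Ptges and Ptger3 were not called with IL-17A (3.43 and -1.54, adjusted p = 0.17 and 0.23), where 0.0382% of genes were. Averaging the near-identical Control-72h replicates 2 and 4, also added after seeing the data, kept 2 of the 5 calls and lost 3.

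Ptges had 69.2, 111 and 138 counts in Control-72h and 1248, 436 and 634 in IL-1-72h (2.77 ± 0.42, adjusted p = 0.0039). In IL-17A-72h it had 1012, 486 and 863 counts (2.87 ± 0.37, adjusted p = 0.023). Every treated library of both cytokines lay above every control, where 54.7% of genes with IL-1 and 45.3% with IL-17A lay apart. Replicate 1 of each cytokine, with the highest Ptges, also had goblet markers at 2374 (IL-1) and 2346 CPM (IL-17A), against 6959 to 10431 in the other 72 h libraries, and stromal markers, 3 or 4 of 9 of which had a row, at 59.7 and 61.8 CPM against 9.04 to 32.6; their part was not tested. Without replicate 1 the log2 fold change of Ptges was 2.35 with IL-1 (adjusted p = 0.0090) and 2.66 with IL-17A (adjusted p = 0.16), and without replicate 3 of IL-17A it was 2.77 (adjusted p = 0.052). At 12 h the groups overlapped, with 221, 73.0 and 144 counts in Control-12h, 269, 162 and 116 in IL-1-12h and 364, 159 and 125 in IL-17A-12h.

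The effect of IL-1 on Ptges was larger at 72 h than at 12 h by 2.40 ± 0.68 on the log2 scale (adjusted p = 0.027), in a test that 25.7% of 12681 genes passed. For IL-17A the difference was 2.40 ± 0.70 with an adjusted p of 0.084, where 0.0393% of 12731 genes passed. The controls of both times share 2 libraries. The tests of a time difference, here and below, counted these libraries at each time as if independent, so their p-values are not exact. The treated libraries were therefore also compared with each other without controls, on CPM. Ptges was then higher at 72 h by 1.76 ± 0.38 with IL-1 (adjusted p = 0.0097, where 36.6% of genes passed) and by 1.78 ± 0.40 with IL-17A (adjusted p = 0.075). No difference between IL-1 and IL-17A in Ptges was called at 72 h (log2 difference -0.11 ± 0.37, adjusted p = 1.0), and 0% of 12186 genes passed that comparison at either time.

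At 12 h Ptgs2 was higher in the libraries with Xist than in those without it in each organoid group. Control-12h had 86.2, 69.2 and 478 counts and IL-1-12h 163, 1094 and 1338; IL-17A-12h had 341, 1732 and 1610 against 90.5, 72.6 and 501 for the same controls in that table. The high values all came from libraries with Xist: 1 of 3 in Control-12h and 2 of 3 in each cytokine group. The comparison as designed gave 2.12 ± 1.00 for IL-1 and 2.71 ± 0.90 for IL-17A (adjusted p = 0.89 for both). Within the libraries without Xist, 163 (IL-1) and 341 (IL-17A) counts stood above the 2 controls, and within those with Xist every treated library stood above the 1 control. With Xist state as a term in limma, added after seeing the data, Ptgs2 rose by 1.20 with IL-1 (adjusted p = 0.032) and by 1.90 with IL-17A (adjusted p = 0.0028), where 0.209% and 0.277% of genes were called. Replicates 3 and 4 of each cytokine group at 12 h, which carry the high values, are the near-identical pairs named above.

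At 72 h no difference in Ptgs2 was called. Control-72h had 65.6, 372 and 459 counts, IL-1-72h 34.9, 620 and 185, and IL-17A-72h 54.9, 160 and 179. The groups overlapped (-0.49 ± 1.08 and -0.93 ± 0.80, adjusted p = 0.75 and 0.41). Here none of the 3 IL-17A libraries, 1 of 3 IL-1 libraries and 2 of 3 controls carried Xist. With Xist state as a term the differences were 0.44 and 0.82 (adjusted p = 0.60 and 0.50).

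Ptger3, the EP3 receptor (chr3:157566892-157645888, plus strand), had 38.1, 63.8 and 58.5 counts in Control-72h, 20.5, 16.9 and 15.4 in IL-1-72h and 10.1, 15.1 and 12.6 in IL-17A-72h. The treated libraries all lay below the controls, where 54.7% and 45.3% of genes lay apart (-1.53 ± 0.38, adjusted p = 0.017, and -1.98 ± 0.40, adjusted p = 0.041). At 12 h IL-1-12h had 35.6, 38.7 and 37.3 counts against 51.5, 40.2 and 61.0, and IL-17A-12h 67.7, 81.1 and 95.9 against 54.1, 42.2 and 63.9. The IL-17A effect on Ptger3 was lower at 72 h than at 12 h by 2.59 on the log2 scale (-2.59 ± 0.42, adjusted p = 0.056).

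Hpgds had 192, 111 and 112 counts in Control-72h and 56.6, 41.9 and 35.1 in IL-1-72h (-1.59 ± 0.34, adjusted p = 0.011). IL-17A-72h had 42.6, 178 and 65.5 counts, with 1 library inside the control range (-0.74 ± 0.55, adjusted p = 0.34). At 12 h all 3 groups overlapped, and the IL-1 effect differed between the times by -1.48 ± 0.42 (adjusted p = 0.025). Without controls, Hpgds was lower in IL-1-72h than in IL-1-12h by -1.42 ± 0.25 (adjusted p = 0.0053). Tuft cell markers, of which 4 or 5 of 7 were read, summed to 12.5, 4.42 and 4.92 CPM in Control-72h, in the library order above. In that order they summed to 4.12, 3.96 and 3.75 CPM in IL-1-72h and to 4.48, 16.5 and 6.05 in IL-17A-72h. The part of tuft cells in the Hpgds values was not tested.

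Hpgd and Ptger4 did not pass in any organoid comparison. Hpgd had 701, 992 and 725 counts in Control-12h, 482, 617 and 647 in IL-1-12h, and 430, 452 and 536 in IL-17A-12h against 736, 1039 and 759. Both treated groups lay below all controls at 12 h (-0.46 ± 0.18 and -0.83 ± 0.17, adjusted p = 0.89 and 0.46), where 9.53% and 10.9% of all genes lay apart in either direction. At 72 h IL-1 libraries ranged from 454 to 1508 counts for this gene. Ptger4 stayed between 265 and 479 counts in all organoid libraries. Ptgs1 was below the filter, with 0 to 14.0 counts.

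**Figure D5:**
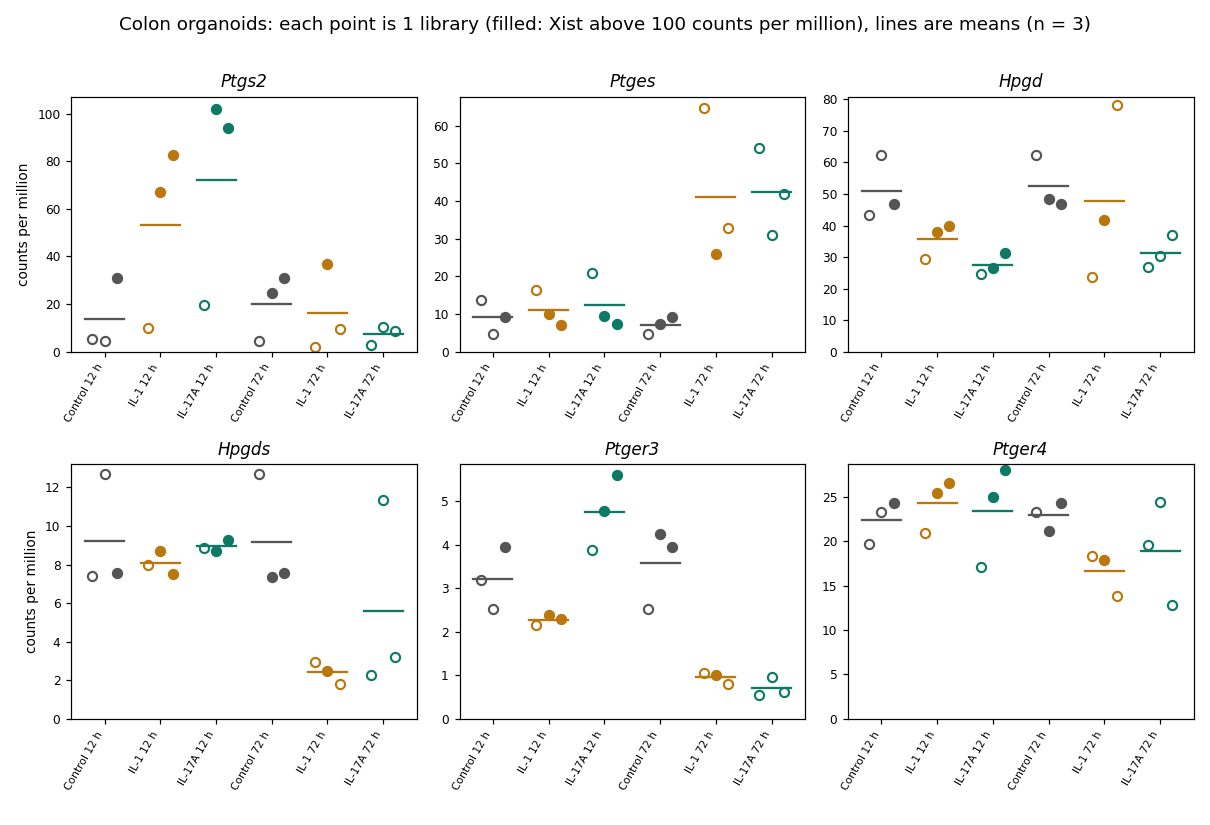
CPM of 6 genes in colon organoids at 12 h and 72 h; points are libraries, filled where Xist exceeded 100 CPM, and lines are group means (n = 3). Control replicates 2 and 4 at 12 h are the same libraries as replicates 1 and 4 at 72 h; Ptges is higher in all treated libraries at 72 h, and the filled points are the highest for Ptgs2 at 12 h.

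Of 18 other pathway genes tested in IL-1-72h, 4 were called higher and 2 lower, where 10.9% and 12.2% of all genes were, with a median of 0.31 against -0.00 over all genes. Slco2a1 rose by 2.43 ± 0.39, the EP1 receptor gene Ptger1 by 2.04 ± 0.63, carbonyl reductase Cbr1 by 1.65 ± 0.28 and Prxl2b by 1.64 ± 0.29. Cytosolic phospholipase Pla2g4a fell by 1.81 (± 0.25) and the aldose reductase Akr1b3, which can make PGF2α, by 1.17 (± 0.26). In IL-17A-72h 0 of 20 were called higher and 2 lower, where 5.02% and 2.92% of all genes were, Pla2g4c (-2.23 ± 0.53) and Akr1b3 (-1.05 ± 0.25); Slco2a1 was the highest there (1.74 ± 0.70, adjusted p = 0.12). At 12 h 0 of 18 were called in each comparison, with Abcc4, an exporter of prostaglandins, highest with IL-1 (0.59 ± 0.17), Akr1b8 highest with IL-17A (0.51 ± 0.09), Ptgr1 lowest with IL-1 (-0.42 ± 0.20) and Prxl2b lowest with IL-17A (-0.59 ± 0.43).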

How the data were processed

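RNA was sequenced from sorted goblet cells, sorted Gli1 stromal cells and organoids. The authors aligned reads with STAR 2.5.3 to mm10 and deposited, for each comparison, normalized counts from DESeq2 1.28.1 (a signal: gene counts divided by a size factor per library). The counting program, annotation and strand setting are not given in the sources used here. Reads per gene were recovered as whole numbers (tolerance 0.1). Genes averaging 10 or more normalized counts were tested with limma 3.58.1 in R 4.3.3 on log2(normalized count + 1), using only the libraries of that table, with Benjamini-Hochberg adjustment over all genes and calls at adjusted p under 0.05 together with a log2 fold change of 1 or more in size. Fits across tables used log2(CPM + 1) with a mean CPM of at least 1, where CPM scales recovered reads to library depth, and differences of effects were called at adjusted p under 0.05 alone. The code was tested on simulated data. Alternatives were a pseudocount of 10, no filter, upper-quartile rescaling, edgeR 4.0.16 and DESeq2 1.42.0 on recovered reads, a replicate block and leaving out each library. Averaged near-identical libraries, Xist state as a term and treated libraries without controls were added after seeing the data. Intervals and floors cover counting error only. Named genes were all members, the targeted genes, pathway genes called or most extreme in a comparison, and the 3 genes most like Ptgs1 or Ptgs2. The members and lists were chosen with earlier results of these data known. Promoters came from RefSeq (GRCm38.p6) and gene positions from GENCODE (GRCm38).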

Additional observations from a re-analysis of the deposited data

Results flagged for a closer look

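The effect of IL-1 differed between the times for a pair of genes, by a test of the difference itself in limma. For Ptges it was 2.40 higher on the log2 scale at 72 h than at 12 h (adjusted p = 0.027), and for Hpgds the difference was -1.48 (adjusted p = 0.025). The control groups of both times share 2 libraries, which the test counted at each time as if independent, so these p-values are not exact. Cytokine and culture time can therefore not be fully told apart in these differences.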

How the results depend on the processing

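Of 255 alternative values for the 11 called log2 fold changes, 227 kept direction and call, 28 lost the call and 0 reversed. Leaving out 1 library gave 162 of these values, with 144 kept and 18 lost. These include values from comparisons that did not hold the library left out. Such values could not change and count as kept, so 144 and 227 overstate the stability. The Xist term likewise could not change GS4T-Distal, where all libraries carried Xist. The genes called in goblet cells numbered 55 as reported, 89 with a pseudocount of 10, 1089 with DESeq2, 2302 with DESeq2 at unadjusted p, 963 with the replicate block, 1102 with the Xist term and 29 to 1031 without 1 library. Among the prostaglandin genes there were 0 goblet calls as reported, 4 with DESeq2 at either p, 2 with the replicate block, 2 with the Xist term and 0 to 1 without 1 library. In stroma 3657 genes were called, 6152 with DESeq2, 7916 at unadjusted p and 2185 to 4349 without 1 library, and 6 of the prostaglandin calls became 2 to 7 without 1 library. In organoids 4048 genes were called, 6450 with DESeq2 at unadjusted p, 1737 with the block, 2200 with near-identical libraries averaged and 2179 to 6596 without 1 library; the 5 prostaglandin calls became 3 with the block, 2 with averaging and 2 to 6 without 1 library. Differences of effects gave 2 calls; comparisons between cell types and segments gave 9, of which 3 passed the filter through stroma alone, and 6 to 10 without 1 library. The cause of these shifts was not tested. The block lost Hpgds (-1.56) and Ptger3 (-1.36) in IL-1-72h and Ptges (2.99) and Ptger3 (-1.91) in IL-17A-72h, and called Ptgs2 at 12 h (1.19 with IL-1 and 1.79 with IL-17A). Deviations of same-numbered libraries correlated at 0.62 to 0.64 at 12 h, where replicates 1 lack Xist and replicates 4 carry it in all 3 groups, and at -0.19 to 0.30 elsewhere. With 2 shared numbers per comparison and no label of a shared source, the numbers do not establish a pairing. With 2 libraries a group in the sorted cells, an uncalled gene is not shown to be unchanged. The smallest detectable difference was not measured.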
